A study of Mus musculus with 4 samples.

Results

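The sites described here are adenosines inside genes that were read as modified in a minority of transcripts, below 40%, in both untreated libraries of mouse retinal organoids. They were chosen on measured values: a site had to be listed in both untreated tables, carry a gene name, have at least 20 reads of A or G and have a level under 40% in both. Mitochondrial sites, predicted genes whose symbol is Gm and a number, and pseudogenes marked ps were left out. The rule found 12228 sites in 5123 genes. They made up 1.14% of the 1076788 positions listed in any of the 4 libraries, and 54.1% of the 22599 sites inside named genes that had 20 reads in both untreated libraries.

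The libraries measured N6-methyladenosine (m6A) by GLORI, in which glyoxal and nitrite convert unmodified adenosine to inosine, read as G, while m6A is read as A. The level of a site is therefore A over A plus G, in percent, and CR is the tables' conversion rate of each gene, so that 100 minus CR in percent is the unconverted share of that gene's adenosines. All 4 libraries came from polyA RNA of day 6 retinal organoids made from the mouse Rx:GFP line, in which an FKBP12 F36V degron with an HA tag was joined to the C-terminus of the endogenous Mettl3 gene. The untreated group (2 libraries, 0 h) received no compound, and the dTAG13 group (2 libraries) was kept for 8 h in 125 nM dTAG13, a small molecule that brings degron-tagged proteins to the ubiquitin ligase cereblon.

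Untreated and treated cells were collected together and carry the same batch label. The untreated cells hold the degron too, and the labels describe no parental line without it and no vehicle control. The genotype labels count upward from Mettl3 to Mettl6 over the 4 samples, whereas the title, line and design text name METTL3 throughout. The deposited tables hold no protein measurement, so the loss of METTL3 in the treated libraries was not checked here. The labels do not say whether the 2 libraries of a group came from separate cultures, so every p-value measures only the spread between these libraries.

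m6A is placed on messenger RNA in the nucleus by a complex whose catalytic subunit is METTL3, with METTL14 holding the RNA and WTAP, VIRMA, ZC3H13, CBLL1 and the RBM15 proteins guiding it. Most of it lies near stop codons and in long exons, where reader proteins such as the YTH family and the IGF2BP family bind it and affect decay, translation and splicing. In developing neural tissue the mark is known to affect how long progenitors divide before they differentiate. In a conversion assay, an adenosine that escaped the chemistry is also read as A, so a low level has to be read beside the unconverted share of the gene.

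The tables list only positions that the authors' caller accepted. Over all of them the fewest reads were 15, the fewest A reads 5 and the lowest level 10%. The caller's own adjusted p was at most 0.00401. A site that is absent from a table may therefore have a lower level, or fewer reads, or both. It may also have missed a limit of the listing through the sampling of reads alone. The 4 tables held 335607, 350462, 220034 and 263069 sites (untreated 1, untreated 2, dTAG13 1, dTAG13 2), and the median coverage of the named genes was 86.0, 87.1, 77.7 and 102. All 6 markers of retinal progenitors (Rax, Pax6, Six3, Six6, Lhx2 and Otx2) were covered in every library, with summed gene coverage of 2331 and 2678 untreated and 1684 and 2442 with dTAG13. Of the telencephalon markers 2 to 3 of 3 were covered (summed coverage 508 to 670), and all 3 pluripotency markers were covered in each library (332 to 398). Pigment epithelium markers were covered at 2 to 3 of 3 genes (139 to 220) and neuronal markers at 1 to 2 of 3 (177 to 285). Mesoderm and endoderm markers were covered at 1 to 2 of 4 genes per library, and T and Tbx6 at none. The part of these other cell types in the values below was not tested. In bulk RNA, fewer cells of a type and less RNA per cell cannot be told apart.

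At the low-level sites the median level was 17.7% in untreated replicate 1 and 17.3% in untreated replicate 2, which the rule bounded above at 40% and the listing bounded below at 10%. By the mean of both libraries, 3341 sites lay at 10 to 15%, 3795 at 15 to 20%, 2728 at 20 to 25%, 1592 at 25 to 30% and 772 at 30 to 40%. The median site had 208 and 228 reads, of which 37 and 40 were A. The sites just inside the limit were in Adipor2 (39.97% and 19.7%), Cep57l1 (14.0% and 39.95%) and G3bp1 (39.9% and 28.0%). Those just outside were in Arpc2 (12.05% and 40.0%), BC034090 (40.0% and 13.0%) and Fbxo30 (40.0% and 30.2%). In 5 of these 6 sites the second library differed by more than 10 points, so the limit separated sites by the higher of 2 unequal readings.

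The absolute difference between the untreated libraries had a median of 5.51 percentage points. The standard error of such a difference from counting alone, which leaves out any spread between libraries, had a median of 3.78 points. These are unlike measures. Site by site, the difference exceeded 2 such standard errors at 4671 sites (38.2%). The difference reached 10 points at 3432 sites (28.1%). Across the 12228 sites, which share both libraries and the limits of 10% and 40%, the levels of the replicates correlated with Pearson's r of 0.220 and a Spearman coefficient of 0.226, given as a description. Pearson's r was 0.092 at the 886 sites with 20 to 50 reads in the shallower library, 0.026 at 50 to 100, 0.113 at 100 to 200, 0.256 at 200 to 500 and 0.462 at the 1793 sites with 500 or more. The median difference was 7.38 points at 20 to 50 reads and 3.60 points at 500 or more.

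The levels stood above the unconverted share of the genes that hold the sites. That share had a median over the sites of 3.97% and 3.61% in the untreated libraries, and the level was a median 4.46 and 4.77 times as high. The ratio lay under 2 at 236 sites (1.93%) in replicate 1 and at 107 (0.875%) in replicate 2, and reached 10 at 574 and 852. Because no site could be listed under 10%, a ratio over 1 was largely fixed by the listing, and it is a description only. Across sites, Pearson's r between level and unconverted share was 0.0892 and 0.0755 in the 2 libraries, over sites that share genes and libraries. The rule and the listing bounded the levels on both sides, and the levels of the untreated replicates correlated with Pearson's r of only 0.220. Both limits hold r down, so these values do not show whether level and unconverted share are related. From the 20% of sites with the lowest unconverted share to the 20% with the highest, the median level went from 18.1% to 19.7%, while the ratio went from 6.58 to 3.61. The unconverted share is the divisor of the ratio, so sorting by it lowers the ratio by itself.

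Among sites with at least 100 reads in both untreated libraries, the highest ratio by the mean of both was in Nop14, a factor of small ribosomal subunit assembly, at chr5:34798269 on the minus strand. Its level was 31.6% and 38.9%, against 1.80% and 2.27% unconverted in the gene. The next were in Ube2q2 and Ube2d3, both ubiquitin-conjugating enzymes, Arhgap19, a GTPase-activating protein, and Etnk1, an ethanolamine kinase, with levels from 25.9% to 39.4%. Of these 5 sites, only that of Ube2d3 was listed after dTAG13, in replicate 1, at 27.4% against 34.7% and 38.7% untreated.

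At the other end, the site at chr17:40158844 in Rn18s-rs5, a sequence related to 18S ribosomal RNA, had levels of 12.5% and 11.7% in a gene that was 12.04% and 9.22% unconverted. With dTAG13 the level was 11.9% and 12.1% and the unconverted share 11.1% and 11.3%, so the level was 1.03 to 1.27 times the unconverted share in all 4 libraries and the groups overlapped. Reads of ribosomal RNA fit many copies, which makes the assignment uncertain. The sites of Erdr1, Sgta, Zfp503 and Tspyl1 followed, with untreated levels from 10.1% to 13.7% against 6.64% to 7.93% unconverted. The unconverted share of Sgta, a co-chaperone, was 7.35% and 7.52% untreated and 4.33% and 3.63% with dTAG13, while its site read 12.3%, 11.9%, 15.8% and 19.1% (adjusted p = 0.452).

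The coordinates are those of the tables, whose contig names belong to assembly GRCm39. Because no genome of that build was at hand, the exon, the untranslated region and the surrounding sequence of the sites are not analysed here. Of the 5123 genes, 5110 were matched to a RefSeq symbol, 5048 of them protein-coding (98.8% of genes) and 33 long non-coding. Over all genes with a listed site the protein-coding share was 94.0%. The sites lay on the plus strand in 53.2%.

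Low-level sites sat closer to other listed sites than intermediate and near-complete sites did. In the 2 untreated libraries 37.0% and 35.3% had another listed site of the same strand within 10 bases, against 24.2% and 24.5% of the 2026 intermediate sites (40 to 90% in both untreated libraries) and 17.5% and 15.8% of the 1363 near-complete sites (90% or more in both). The nearest listed site was a median of 17 and 19 bases away, against 27 and 26 for intermediate and 38 and 40 for near-complete sites. Of the 1880 low-level sites outside named genes, 32.3% and 33.8% had a listed neighbour within 10 bases. For 14.1% of those sites a neighbour within 10 bases was of their own class. The rule decides how many sites each class has, and with it the distance within a class: 876 low-level sites (7.16%) had another of their own class within 10 bases and 2209 (18.1%) within 50. Measured along the span of listed sites in genes with at least 10 of them, 65.0% of low-level sites lay in the last 20%, towards the 3′ end, compared with 74.2% of intermediate sites, 66.6% of near-complete sites and 58.5% of all listed sites in genes. These shares carry no test, and the part of read depth, which differs between the classes, was not tested.

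Of the 5123 genes, 2153 (42.0%) held 1 low-level site and 598 held 5 or more. Low-level sites occurred in 1173 of the 1676 genes with an intermediate site (70.0%) and in 540 of the 1155 genes with a near-complete site (46.8%), which are 22.9% and 10.5% of the genes with low-level sites. Of all 11932 genes present in both untreated tables, 5123 (42.9%) held a low-level site. The most sites were in Ddx17, an RNA helicase of splicing and microRNA processing, with 16, and Cpsf6, a subunit of the 3′ end cleavage factor, with 15. Glul, the glutamine synthetase gene, held 14 and Myh10, which encodes a non-muscle myosin heavy chain, held 13. In these 4 genes the mean untreated levels ran from 10.5% to 31.0%, and 7, 6, 8 and 4 of the sites were listed with dTAG13 in at least 1 library. Median coverage of the genes rose with the number of sites, from 112 in untreated replicate 1 for genes with 1 site to 273 for genes with 6 or more, and its part in the number of sites was not tested.

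In the dTAG13 libraries, 1854 of the 12228 sites (15.2%, Wilson 95% interval 14.5 to 15.8) were listed in replicate 1 and 1906 (15.6%, 14.96 to 16.2) in replicate 2. Only 796 (6.51%) were listed in both, 2168 in 1 of them and 9264 (75.8%) in neither. The intervals cover counting error only. The rule demanded listing in both untreated libraries, so their full listing there is no reference for these shares. The same rule applied to the dTAG13 pair found 6872 sites in 3627 genes, and of those 22.7% and 23.9% were listed in the untreated libraries. Thus low-level sites of either pair were mostly missing from each library of the other group, and the share found again was lower for the untreated pair in every cross-comparison.

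**Figure D1:**
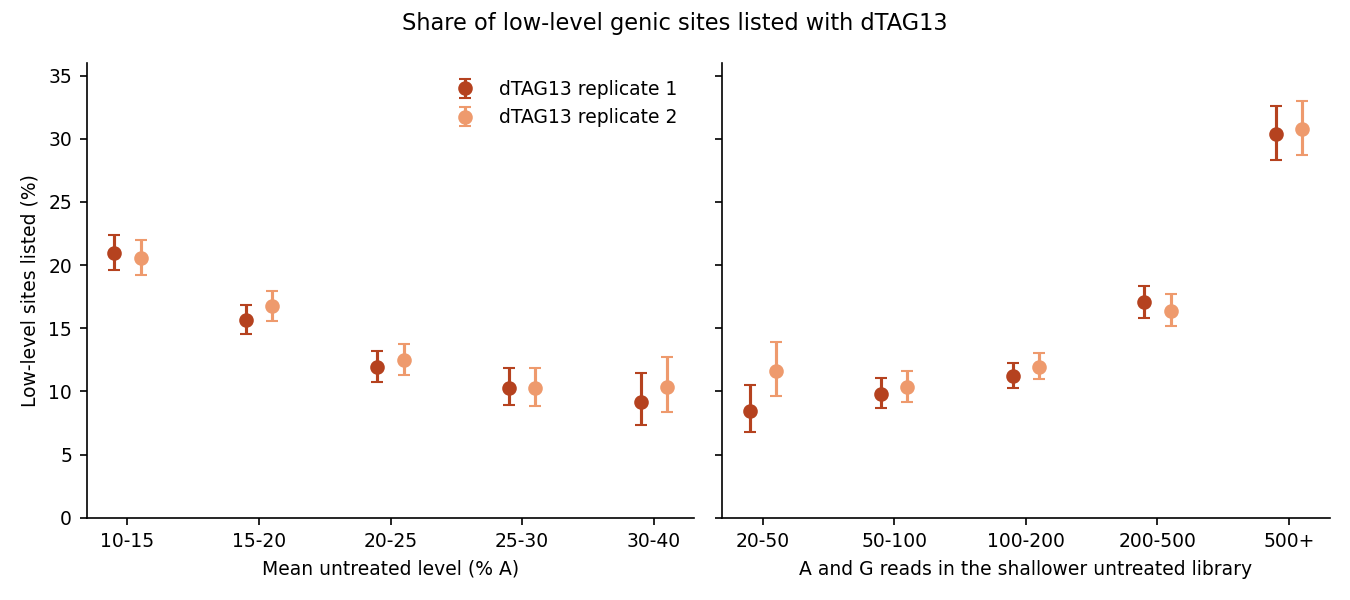
Percent of low-level sites listed in each dTAG13 library (points, with bars for the Wilson 95% interval), by mean untreated level on the left and by A and G reads in the shallower untreated library on the right. The share was 21.0% and 20.6% at levels of 10 to 15% and 9.20% and 10.4% at 30 to 40%, and it was 8.47% and 11.6% at 20 to 50 reads and 30.4% and 30.8% at 500 or more.

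The 4 pairs of 1 untreated and 1 dTAG13 library gave 7556 to 8171 low-level sites, more than the dTAG13 pair and fewer than the untreated pair. Their sites were listed in the remaining untreated library at 23.1 to 24.2% and in the remaining dTAG13 library at 18.8 to 21.0%. The count of the dTAG13 pair was 0.562 of the untreated count. The pool from which pairs are drawn was smaller too: single dTAG13 libraries listed 100673 and 112810 genic sites with 20 reads and under 40%, against 152572 and 164508 in the untreated ones. Of such single-library sites, 8.01% and 7.43% were shared by the untreated pair and 6.83% and 6.09% by the dTAG13 pair. Pairs share libraries with each other, so these counts are not independent.

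The share listed with dTAG13 was lower at untreated levels above 20% than below. Sites at 10 to 15% were listed in 21.0% and 20.6%, those at 15 to 20% in 15.7% and 16.7%, those at 20 to 25% in 11.9% and 12.5%, those at 25 to 30% in 10.3% and 10.2%, and those at 30 to 40% in 9.20% and 10.4%. For the dTAG13 pair followed into the untreated libraries the share was 25.7% and 26.1% at 10 to 15% and 14.1% and 13.8% at 30 to 40%. Read number moved with level: the median in the shallower library was 249 reads at 10 to 15% and 111 at 30 to 40%. Within sites of at least 200 reads, in genes whose coverage with dTAG13 was within 1.5-fold of untreated, 25.3% and 24.5% of 775 sites under 15% were listed, compared with 10.4% and 11.5% of 96 sites at 30% or more. The same subsets of the dTAG13 pair gave 29.0% and 31.5% of 720 sites under 15%, and 28.0% and 32.0% of 25 sites at 30% or more, whose intervals run from 14.3 to 51.6%.

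Gene coverage differed between the libraries, with medians over the genes that hold low-level sites of 148, 158, 112 and 154. At the 6023 sites in genes whose coverage stayed within 1.5-fold of untreated in both dTAG13 libraries, 14.7% and 14.6% were listed, close to the 15.2% and 15.6% of all sites. Sites whose untreated replicates lay within 5 points were listed in 18.5% and 19.4%, and those 10 points or more apart in 10.4% and 10.8%. Of the other classes, intermediate sites were listed in 8.05% and 8.84%, near-complete sites in 11.9% and 12.8%, and the 1880 low-level sites outside named genes in 47.3% and 52.0%. The classes differ in depth, with medians in the shallower library of 168 reads for low-level, 110 for intermediate and 42 for near-complete sites. For the low-level sites outside named genes the median was 90 reads. The part of depth in these shares was not tested.

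Sites in genes with coverage within 1.5-fold of untreated in both dTAG13 libraries were looked up after the values were known. Those taken were deep, had levels of 30% or more and were listed in neither dTAG13 library. The deepest was in Nutf2, the carrier that brings Ran into the nucleus, at chr8:106605767 on the plus strand. It read 36.7% of 4241 reads and 34.9% of 4347 reads untreated. Gene coverage of Nutf2 was 837, 832, 584 and 874, kept within 1.5-fold by the choice of sites. The reads at the site itself with dTAG13 are not known. The site of Tmpo, a protein of the nuclear lamina, at chr10:90985087 on the minus strand read 36.3% and 25.8% of 2698 and 2256 reads, and that of Cdca4, a cell-cycle regulator, at chr12:112783940 on the minus strand read 39.9% and 37.7% of 2497 and 1911 reads. Coverage of Cdca4, bounded in the same way, was 437, 456, 408 and 606, with the highest value in a dTAG13 library.

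The genes of the m6A pathway held low-level sites of their own. Of the 8 writer-complex genes 6 held 11 sites, with mean untreated levels from 13.0% in Rbm15 to 35.4% in Virma, and 1 of the 11, in Cbll1, was listed with dTAG13, in replicate 1. No low-level site lay in Mettl3 or Mettl14. Among readers and erasers 11 of 12 genes held 36 sites, of which 16 were listed in at least 1 dTAG13 library and 4 in both. Over all genes 24.2% of the sites were listed in at least 1 and 6.51% in both. The gene sets were chosen with earlier results of these data known, and their counts are descriptions.

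Igf2bp1, an RNA-binding protein that reads m6A and stabilises its targets, held 12 low-level sites, 3 of them listed in all 4 libraries within 30 bases on the minus strand of chr11. The site at chr11:95849376 read 16.8% and 18.8% untreated and 18.1% and 16.6% with dTAG13. The site at chr11:95849401 read 14.7%, 14.97%, 15.5% and 16.8%, and that at chr11:95849406 read 13.5%, 13.3%, 13.7% and 15.5%, in the same order of libraries. Each had 4467 or more reads in every library, while coverage of the gene was 311, 360, 184 and 254. Whether all these reads came from Igf2bp1 was not tested. At the first the groups overlapped, and at the other two both dTAG13 libraries lay slightly above the untreated ones (adjusted p = 0.940, 0.621 and 0.732). The 3 sites are close enough to share reads and are not separate measurements. In Igf2bp2, a paralog, the site at chr16:21879279 read 13.9%, 12.6%, 12.2% and 25.7%, with the high value in a single dTAG13 library (adjusted p = 0.840).

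Of 11 retinal regulators, 9 held 33 low-level sites, of which 10 were listed in at least 1 dTAG13 library and 3 in both. Sfrp2, a secreted antagonist of Wnt signalling, held 11. Its site at chr3:83680841 on the plus strand read 20.5% and 20.8% untreated and 20.2% and 19.1% with dTAG13, from 2401 to 5931 reads, with both treated values just below both untreated ones (adjusted p = 0.718). Its site at chr3:83673984 read 14.6%, 14.4%, 11.9% and 14.1% (adjusted p = 0.932). In Lhx2, a LIM-homeodomain factor of the optic vesicle, 1 of 5 sites was listed in all libraries, at chr2:38241524, with 17.3%, 14.0%, 22.6% and 15.1% (adjusted p = 0.885), and the groups overlapped.

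Otx2, a homeodomain factor of retina and pigment epithelium, held 4 low-level sites at mean levels from 13.8% to 28.7%, and none was listed with dTAG13. Gene coverage of Otx2 was 414, 385, 275 and 457, and the unconverted share of the gene was 6.84% and 5.09% untreated and 3.05% and 3.48% with dTAG13. Rax, the factor whose locus names the reporter line, held 1 site at a mean of 22.4%, also listed in neither treated library, and was 8.19% and 10.1% unconverted before and 4.18% and 4.50% after. Pax6 held 2 sites and Six6 2, none listed with dTAG13, and Six3 held 4, of which 1 was listed. Over all genes 75.8% of the low-level sites were listed in neither dTAG13 library. Of the 33 sites in retinal regulators 30.3% were listed in at least 1, against 24.2% over all genes.

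Larger gene groups are described beside all genes, of which 42.9% held low-level sites, with 24.2% of the sites listed in at least 1 dTAG13 library and 6.51% in both. All 20 hnRNP genes, which package nuclear RNA, held low-level sites, 88 in all, and 25 of these (28.4%) were listed in at least 1. Cytosolic ribosomal protein genes held 66 sites in 38 of 75 genes, of which 28 (42.4%) were listed in at least 1 and 14 (21.2%) in both. Tubulins and actins had 11 of 20 sites (55%) listed in at least 1, and translation factors 41 of 138 (29.7%). Zinc-finger genes named Zfp held 154 sites in 79 of 335 genes, with 35 (22.7%) listed in at least 1. No difference between a group and all genes was tested. Ribosomal, tubulin and actin genes have near-identical copies whose reads the counting could split, and their sites were deeper than average (medians of 277 and 472 reads against 168 over all). The sites of hnRNP genes (389) and translation factors (214) were deeper too, and those of Zfp genes were shallower (140). Neither the copies nor the depth was tested as a part of these shares.

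Levels could be compared between the groups at the 793 low-level sites, in 667 genes, that were listed with at least 20 reads in all 4 libraries. These sites entered only because both dTAG13 libraries listed them, hence with a level of at least 10% there, and they do not stand for the rest. Their median level was 15.7% and 15.8% untreated and 16.5% and 16.3% with dTAG13, that is 15.8% ± 0.0849 and 16.4% ± 0.136 (SD, n = 2 each). The difference of 0.628 points had an exact permutation p of 0.33, the smallest that 2 against 2 libraries allow. Site by site the median change was 0.771 points, with quartiles of -1.68 and 3.62. The median was -0.00865 without dTAG13 replicate 1, 0.343 at the sites with 500 or more reads and 1.26 after correction for the unconverted share, so its sign and size are not settled. Between libraries the absolute difference had a median of 3.20 points within the untreated pair, 3.77 within the dTAG13 pair and 3.45 to 3.89 across the groups, so a typical site differed between the groups by about as much as between replicates.

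**Figure D2:**
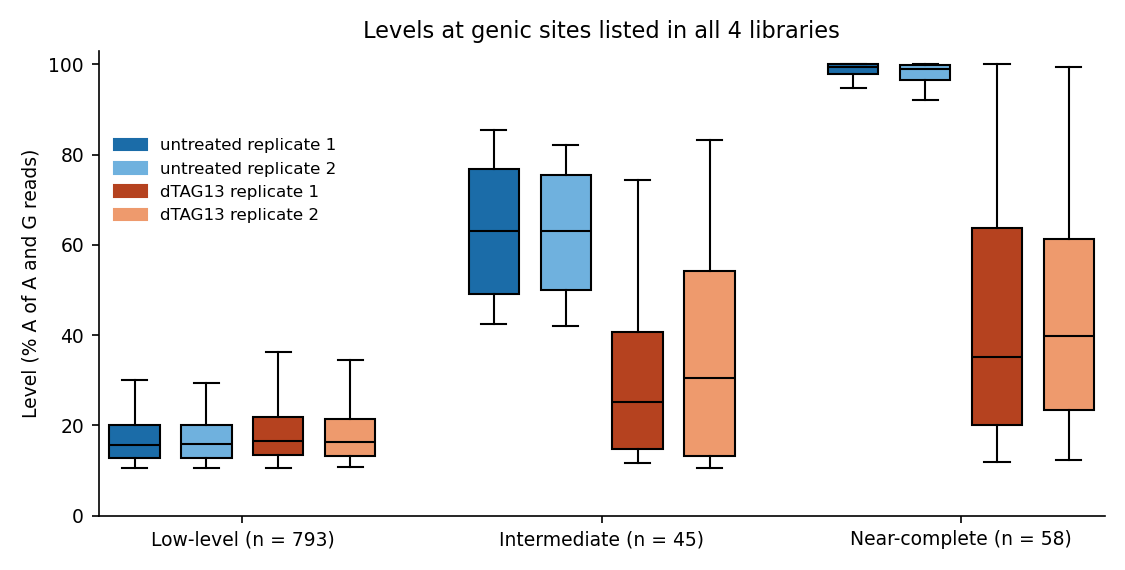
Level in percent of A and G reads at genic sites listed in all 4 libraries, by class and library; boxes span the quartiles with the median as a line, and whiskers run from the 5th to the 95th percentile of sites. Medians of the 793 low-level sites were 15.7 to 16.5%, while those of the 58 near-complete sites were 99.4% and 99.0% untreated and 35.3% and 39.7% with dTAG13.

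The level changed by less than 5 points in either direction at 550 of the 793 sites (69.4%). It was 10 points or more higher at 63 sites and 10 points or more lower at 16, where all 2321 sites fitted gave 133 and 216. Those 2321 also include sites of the other classes, sites outside named genes, and sites in Gm genes and pseudogenes. Each site had to read 10% or more in both dTAG13 libraries. A site with an untreated mean under 20% therefore could not fall by 10 points, so the listing limits falls and not rises. Both dTAG13 values lay below both untreated values at 111 sites (14.0%) and above them at 174 (21.9%), where all 2321 sites fitted gave 19.4% and 17.8%. The sites were chosen by their untreated level, which by itself moves the changes at the ends of the range. The median change was 1.77 points at the 323 sites of 10 to 15% and -2.51 points at the 73 sites of 25 to 40%.

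The spread of the changes narrowed with depth. Of the 50 sites with 2000 or more reads in every library, 48 (96.0%) changed by less than 5 points, with changes from -3.08 to 8.53 points and a median of -0.0982. At 500 to 2000 reads 166 of 187 sites (88.8%) did so, and at 20 to 100 reads 95 of 170 (55.9%). The untreated median level was 17.9% at 20 to 100 reads and 13.6% at 2000 or more. With listing only at 10% or more, the deepest sites therefore had less room to fall, and the part of this limit in the narrowing was not tested.

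**Figure D3:**
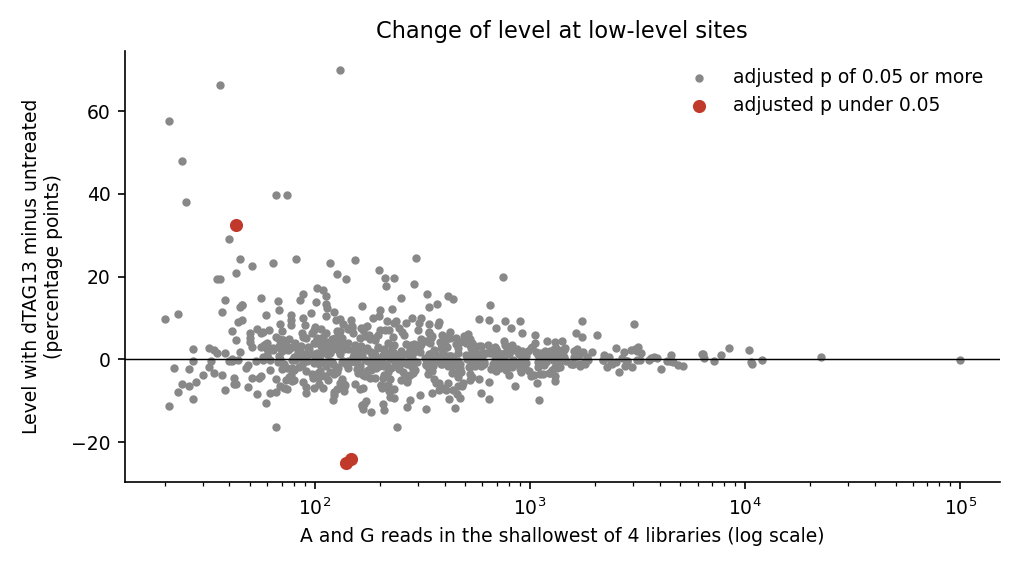
Change in mean level, dTAG13 minus untreated (percentage points), against A and G reads in the shallowest library (log axis); each point is 1 of the 793 low-level sites, in red where it passed the test. Changes ran from -25.0 to 69.9 points over all sites and from -3.08 to 8.53 points at sites with 2000 or more reads. Every site had to read 10% or more with dTAG13, which limits the falls.

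The deepest sites have the smallest counting error, which says nothing about the origin of their reads. At chr4:129409676 on the plus strand in Marcksl1, which encodes an actin-binding substrate of protein kinase C, the level was 13.1% and 14.1% untreated and 14.6% and 13.8% with dTAG13, from 22488 to 43114 reads (adjusted p = 0.877). The dTAG13 values overlapped the untreated ones. At chr14:55135890 on the plus strand in Bcl2l2, a relative of BCL2 that protects from apoptosis, it was 16.1%, 13.0%, 14.0% and 13.2% (adjusted p = 0.909), the highest value being untreated replicate 1. The Bcl2l2 site had 10777 to 19019 reads, while coverage of the gene was 607, 699, 448 and 666. Whether all these reads came from Bcl2l2 was not tested.

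In Cdk4, the G1 cyclin-dependent kinase, the site at chr10:126903024 read 12.7%, 11.6%, 12.4% and 12.5% from 6446 to 12745 reads (adjusted p = 0.944). In Rack1, a scaffold protein of the ribosome, the site at chr11:48696448 read 12.6% and 11.3% untreated and 15.5% and 13.9% with dTAG13, so that both treated values were higher, without passing the test (adjusted p = 0.391). The sites in Rps9, Rpl10a and Ptma, 2 ribosomal proteins and prothymosin alpha, read from 10.1% to 15.9% in the 4 libraries, with adjusted p from 0.545 to 0.807. These genes have processed copies, which makes the origin of their reads uncertain.

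The other two of the 10 deepest were not listed with dTAG13. Eef1a1, the elongation factor that brings aminoacyl-tRNA to the ribosome, read 14.96% and 13.1% at chr9:78385860 from 23321 and 25363 reads. Hspa8, the constitutive heat shock chaperone, read 20.2% and 14.1% at chr9:40714649 from 9573 and 10710 reads. Coverage of Eef1a1 was 6469, 7378, 4321 and 6244, and that of Hspa8 was 2906, 3250, 1829 and 2847, so both genes were covered in the libraries where the site was absent from the table. Both genes have many near-identical copies.

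The per-site test was a quasi-binomial model of the A and G reads with a dispersion moderated over all 2321 sites that were listed with 20 reads in all 4 libraries, and p-values adjusted by Benjamini-Hochberg over all 2321. At adjusted p under 0.05 it called 53 sites (2.28%), 2.2% lower and 0.0862% higher with dTAG13. The 2321 mix sites inside named genes with sites of kinds that the rule left out. Among them are 727 low-level sites outside named genes, with 0 called lower and 1 higher. Inside named genes, 17 of 45 intermediate and 25 of 58 near-complete sites were called lower, and 2 of 86 sites that belonged to no class. Of the 793 low-level sites it called 3 (0.378%), 2 lower and 1 higher. At an unadjusted p under 0.05 there were 87 (11.0%), where all sites gave 9.35%. The untreated levels that chose the sites enter this test, so the count of falls and rises is read only beside that background.

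The sites that fell were in Cnn3, a calponin that binds actin, and Wdhd1, a replisome protein that couples the helicase to DNA polymerase alpha. At chr3:121251810 on the plus strand in Cnn3 the level was 38.7% of 194 reads and 36.7% of 387 reads untreated, and 14.4% of 139 and 11.0% of 372 with dTAG13, a mean of 37.7% ± 1.39 against 12.7% ± 2.38 (SD, n = 2; adjusted p = 0.0322). At chr14:47478576 on the minus strand in Wdhd1 it was 35.7% of 339 and 38.8% of 278 untreated, and 13.6% of 264 and 12.9% of 147 with dTAG13, 37.3% ± 2.23 against 13.3% ± 0.503 (adjusted p = 0.0410). Both sites started close to the 40% limit and ended close to the 10% below which the tables list nothing. Their genes were 3.03 to 4.04% unconverted before and 2.28 to 2.72% after.

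The site that rose was in Ube4a, a ubiquitin ligase that extends ubiquitin chains, at chr9:44837070 on the minus strand. It read 14.1% of 305 reads and 12.1% of 141 reads untreated, and 48.8% of 43 and 42.1% of 228 with dTAG13, 13.1% ± 1.44 against 45.5% ± 4.76 (SD, n = 2; adjusted p = 0.0405). The gene's unconverted share was 3.13% and 3.79% untreated and 2.74% and 3.36% with dTAG13. With any single library left out the test has 1 library against 2 and takes its spread from the other group. None of the 3 sites then passed (0 of 793 in each case, with 82 to 100 at unadjusted p under 0.05; adjusted p 0.117 to 0.299). Without either dTAG13 library 0 of all 2321 sites passed, so those fits say nothing about these 3, while 31 of the 2321 passed without untreated replicate 1 and 31 without untreated replicate 2. edgeR's quasi-likelihood test kept the site in Ube4a (adjusted p = 0.0489) and not those in Cnn3 (0.0598) or Wdhd1 (0.0580), and limma on log2 odds called 0 of the 793, with 47 at unadjusted p under 0.05.

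**Figure D4:**
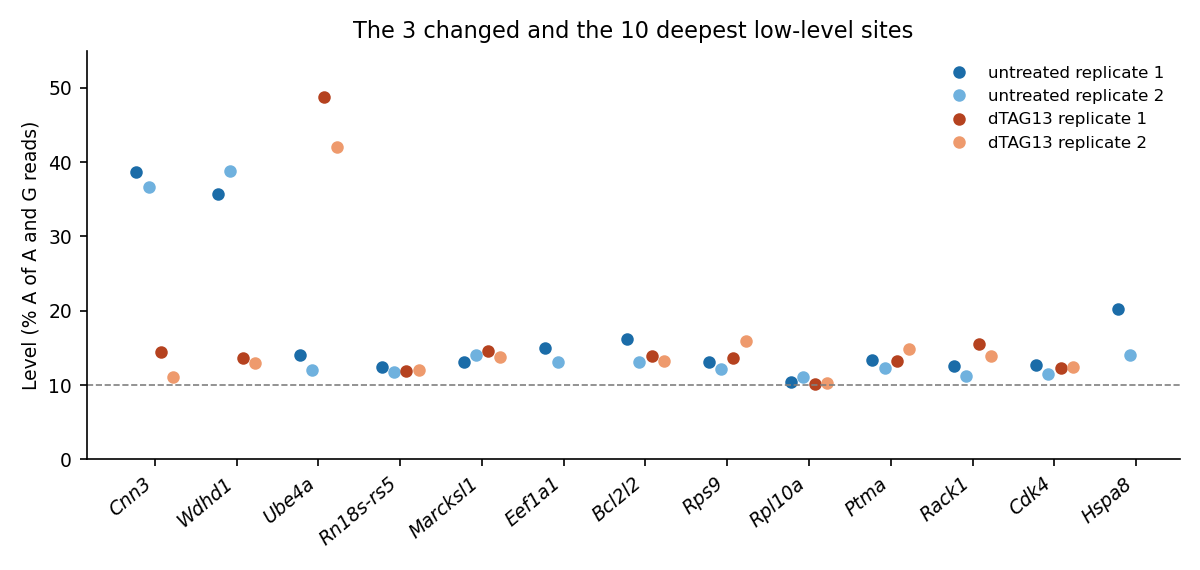
Level in percent of A and G reads (vertical axis) in each library at the 3 low-level sites that passed the test and the 10 deepest; each point is 1 library, and the dashed line marks 10%, the lowest level listed. The site in Ube4a lay at 48.8% and 42.1% with dTAG13, those in Cnn3 and Wdhd1 at 11.0 to 14.4%, and Eef1a1 and Hspa8 have points in the untreated libraries only.

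Some larger differences did not pass the test, and they are named after their values were seen. In Fscn1, an actin-bundling protein, the site at chr5:142946204 on the plus strand read 16.1% of 217 reads and 14.1% of 198 reads untreated, and 74.8% of 131 and 95.2% of 249 with dTAG13 (adjusted p = 0.0755). Both treated values were far above both untreated ones and differed from each other by more than 10 points. Coverage of Fscn1 was 999.7, 1063, 614 and 765. In Rcn3, a calcium-binding protein of the endoplasmic reticulum, the site at chr7:44733096 read 18.5%, 15.4%, 66.7% and 100%, the last values from 36 and 40 reads (adjusted p = 0.151).

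In E2f5, a cell-cycle transcription factor, the site at chr3:14644049 read 21.1%, 17.7%, 100% and 34.5%, where 100% rested on 24 reads. Of the 12228 low-level sites, 61 reached 90% in at least 1 dTAG13 library, 7 of these were listed in both, and 0 were at 90% or more in both. Of the 796 sites listed in both dTAG13 libraries, 752 stayed under 40% in both. Among falls that missed the threshold, Ints7, a subunit of the Integrator complex, read 35.8%, 21.3%, 12.1% and 12.3% at chr1:191347933, and Bod1, a kinetochore protein, read 36.4%, 21.0%, 12.9% and 12.01% at chr11:31615689 (adjusted p = 0.561 and 0.457). In both genes the untreated replicates differed from each other by more than 10 points.

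The 45 intermediate sites listed in all 4 libraries had median levels of 63.0%, 63.2%, 25.3% and 30.5%, and 17 of them were called lower. The 58 near-complete sites had medians of 99.4%, 99.0%, 35.3% and 39.7%, and 25 were called lower. The gap between the median of near-complete and that of low-level sites was 83.7 and 83.2 points untreated and 18.8 and 23.4 points with dTAG13. The gap differed by -62.4 points, a description with no test. The untreated values of both classes were fixed by the rule, and every one of these sites had to stay at 10% or more to be listed with dTAG13.

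The unconverted share of the genes is no term of the rule, but whether the authors' caller used it to list sites is not given in the sources used here. Over the 5080 genes with low-level sites that were measured in all 4 libraries, its median was 4.06% and 3.70% untreated and 3.06% and 3.20% with dTAG13, 3.88% ± 0.255 against 3.13% ± 0.0993 (SD, n = 2 each). The difference was -0.747 points, and both treated libraries lay below both untreated ones (exact permutation p = 0.33). The share was lower without overlap in 2415 of these genes (47.5%) and higher in 214 (4.21%), where all 10695 genes measured gave 43% and 5.39%. In the 5615 genes without a low-level site the medians were 4.32%, 3.98%, 3.15% and 3.24%, a difference of -0.960 points. The difference between these sets of genes was not tested.

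**Figure D5:**
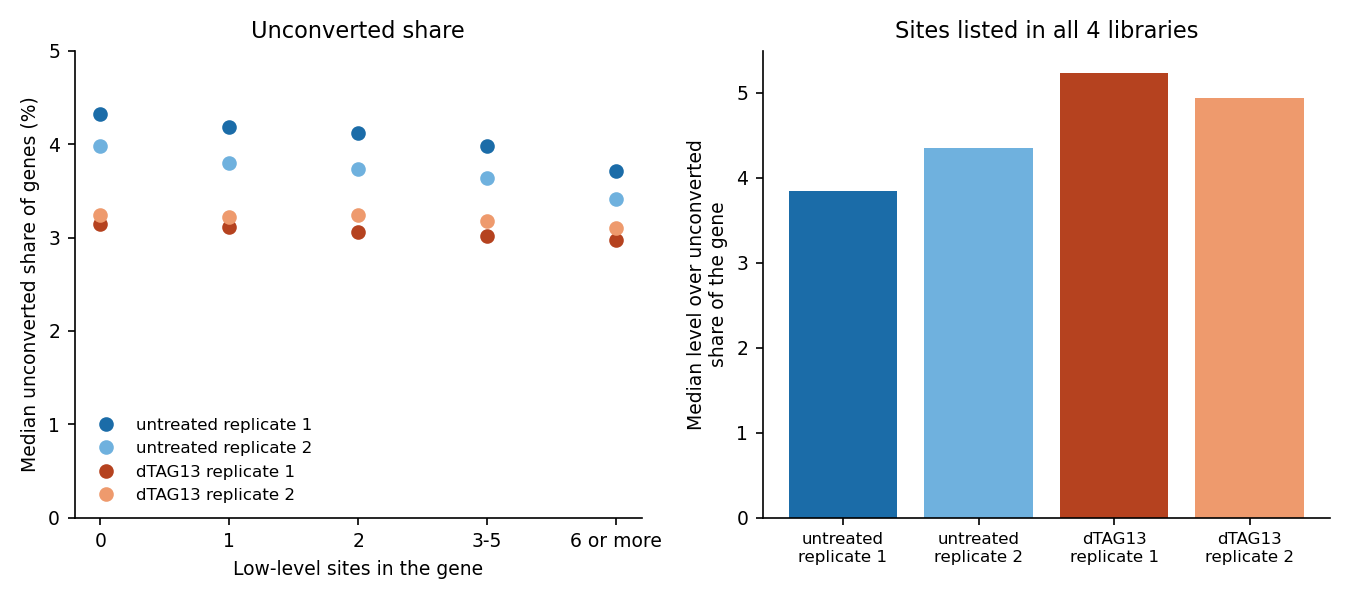
Left, median unconverted share of genes in percent, 1 point per library, for genes with 0, 1, 2, 3 to 5 and 6 or more low-level sites; right, bars for the median ratio of level to unconverted share at the 793 low-level sites listed in all 4 libraries. In every set of genes both dTAG13 points lay below both untreated points, and the ratio was 3.84 and 4.35 untreated and 5.23 and 4.94 with dTAG13.

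In a gene's CR, adenosines that escaped the chemistry and modified adenosines cannot be told apart. Of the genes with low-level sites, the 1536 that also held an intermediate or near-complete site differed by -0.961 points and the 3544 without one by -0.643 points. Their untreated shares were 4.22% and 3.90%, and 3.98% and 3.61%.

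At the 793 sites listed everywhere the median level was 15.7 to 16.5% in the 4 libraries. The unconverted share of the gene had medians over these sites of 4.06%, 3.72%, 3.22% and 3.34%. It was lower without overlap at 380 of them (47.9%), where all 2321 sites fitted gave 659 (28.4%). The 2321 include 727 low-level sites outside named genes, whose share is not that of a gene and which gave 9.49%. Counted over genes instead of sites, the share was lower without overlap in 43% of all 10695 genes measured. Intermediate sites gave 64.4% and near-complete sites 69.0%. The median ratio of level to unconverted share was 3.84 and 4.35 untreated and 5.23 and 4.94 with dTAG13, a mean of 4.10 ± 0.363 against 5.08 ± 0.209 (SD, n = 2; exact permutation p = 0.33). The sites had to keep a level of 10% in the treated libraries to be counted, which by itself holds the ratio up.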

How the data were processed

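GLORI libraries of 4 organoid samples were used, 2 per group, each as 1 table of sites. The authors deposited, per site, whole-number counts of A reads and of A plus G reads, a p-value with its adjusted value, the fraction of A reads, and, per gene, CR as a fraction and a coverage signal. The submitters' processing notes name the build mm10; the contig names are those of GRCm39, and 9.06% of the low-level sites in matched genes lay inside the GRCm38 interval of their gene. The caller and its settings are not given in the sources used here.

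Levels were recomputed from the counts. Sites, genes and gene lists were chosen with earlier results of these data known. Sites listed with 20 reads in all 4 libraries were fitted with a quasi-binomial model in R 4.3.3 (dispersion moderated with limma 3.58.1, held at 1 or above, two-sided), adjusted by Benjamini-Hochberg over all 2321. On simulated data of 2321 sites it recovered 51 of 100 sites changed by a natural log odds of 2, and 65 of 100 at 3. It made 6 false calls among the sites left unchanged. The simulation had a fixed spread between libraries and no lower limit on the level. It therefore does not give the recovery at low-level sites, which are listed only at 10% or more. Library medians were compared by exact two-sided permutation. Intervals are Wilson 95% and cover counting error only, since duplicate reads may remain.

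Named sites are those past adjusted p 0.05, the 10 deepest, the genes with the most sites, the 5 highest and 5 lowest ratios to the unconverted share at 100 reads or more, sites of writers, readers, erasers and retinal regulators listed in all 4 libraries, and those nearest the 40% limit; others are said to be chosen after their values were seen. Alternatives were other tests (Fisher's exact test, edgeR 4.0.16, limma), read minima and level limits, a replicate block, and leaving out each library.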

Additional observations from a re-analysis of the deposited data

How the results depend on the processing

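The count of 3 changed low-level sites became 267 with Fisher's exact test on pooled reads (99 lower, 168 higher), which takes no account of the spread between libraries. It became 1 with edgeR, 0 with limma on log2 odds (47 at unadjusted p under 0.05), 1 at 50 reads or more, and 0 to 0 with a library left out (82 to 100 unadjusted). It stayed 3 without the floor on the dispersion or without a read minimum. With the replicate number as a block it was 0 (81 at unadjusted p under 0.05); same-numbered libraries did not deviate together over the 2321 sites (r = 0.0385), so the numbers give no pairing. The mean share listed with dTAG13, 15.4%, became 15.8% at 50 reads or more, 21.6% at 200 or more, 17.2% for levels under 30%, 11.9% for levels of 20 to 40% and 16.3% with Gm genes and pseudogenes kept. It was 14.6% in genes with coverage within 1.5-fold, an alternative chosen after seeing the data, and 15.2 to 15.6% with a library left out. The median change of 0.771 points became 1.02 for levels under 30%, 1.26 after correction for the unconverted share, and 0.343 at 500 reads or more (chosen after seeing the data). It ran from -0.00865 without dTAG13 replicate 1 to 1.11 without untreated replicate 1. The median ratio to the unconverted share, 4.61, became 4.23 for levels under 30% and 4.87 with 1 value per gene. The gap of -62.4 points became -70.8 at 50 reads or more. The causes were not tested. The unconverted share and the count per pair kept their direction under the alternatives run. With 2 libraries a group, no exact permutation test can go below p = 0.33.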
